A study of Mus musculus with 6 samples.

Results

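Ion channels, cation pumps and aquaporins were followed in Hepa1-6 cells, a mouse liver cancer line, with and without a knockout of Matr3. They were chosen as the protein-coding genes whose symbol begins with Kcn, Cacn, Scn, Clcn, Trpc, Trpm, Trpv, Ano, P2rx, Atp1a, Atp1b, Atp2a, Atp2b, Atp2c or Aqp, with the subfamily number that some of these names carry. They were also selected on their counts: a gene needed a sum of at least 30 over the 6 libraries, whichever group the counts came from. This gave 82 genes, out of 211 protein-coding genes whose symbols match and 55573 rows in the deposited table; 62 of the 211 had no count in any library. The choice by symbol also took in proteins that are not channels themselves, among them Trpc4ap, Kcnrg, Kcnip3 and Kcnip4.

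Bulk RNA-seq was done on 3 libraries of Matr3 knockout cells (KO), made with CRISPR/Cas9, and 3 libraries of wild-type cells (WT). Both groups were grown in DMEM with fetal bovine serum, and the labels do not say whether the KO libraries come from separate clones or the libraries of either group from separate cultures. The p-values thus cover the variation among these 6 libraries and no more, and that variation may be technical. Library totals lay between 23126778 and 30794032 counts in KO and between 20736570 and 27578804 counts in WT.

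Matr3, which encodes the nuclear RNA- and DNA-binding protein matrin-3, had 76.0, 86.1 and 75.3 CPM (counts scaled to library size) in KO libraries, against 129, 125 and 134 CPM in WT libraries. The groups did not overlap (log2 fold change -0.71 ± 0.09 SE, edgeR adjusted p = 0.00213), so transcripts of the targeted gene were fewer but present in KO libraries. These counts do not measure the protein. The labelled cell type was checked against marker genes. The liver genes Ttr and Serpina1a had no count in any library, and Alb, Apoa1, Hnf4a and Trf stayed at or near 0. Afp, the fetal liver protein made by many hepatomas, had 2.14 to 3.55 CPM in KO libraries and 4.57 to 5.06 CPM in WT libraries. The summed level of the 11 hepatocyte or hepatoma markers was 1021 to 1077 CPM in KO libraries and 579 to 684 CPM in WT libraries, nearly all of it from the keratins Krt8 and Krt18. The cholangiocyte list, led by Krt19, summed to 645 to 684 CPM in KO libraries and 287 to 316 CPM in WT libraries. Fibroblast or stellate markers, mostly Col1a1, summed to 16.8 to 25.3 CPM in KO libraries and 13.8 to 16.5 CPM in WT libraries, while Pdgfrb of that list ran the other way, with 1.08 to 1.34 CPM in KO libraries and 2.24 to 3.78 CPM in WT libraries. Neuron markers, led by Tubb3, summed to 18.2 to 21.5 CPM in KO libraries and 16.0 to 16.6 CPM in WT libraries, while Rbfox3 of that list was at 0. Markers of macrophages, muscle and red cells were at or near 0 in both groups. Over tested genes, the deviation of log2 CPM from the mean of the 6 libraries correlated with gene GC content at -0.27 in KO replicate 2 and at 0.26 in each of the other KO libraries, and between -0.16 and -0.03 in WT libraries (14666 genes with a GC value). The number of genes called among all tested genes was 2306 with all libraries, 4368 without KO replicate 2 and 7630 without KO replicate 2 and WT replicate 1. The part of these libraries and markers in the results was not tested.

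Ion pumps spend ATP to build gradients across membranes, and channels let ions run back down them. The sodium-potassium pump sets the resting sodium and potassium gradients, the Atp2 pumps keep cytosolic calcium low, and channels of the Kcn, Cacn, Scn, Clcn, Trp, Ano and P2rx families open to voltage, ligands, calcium or stretch. In liver epithelium these gradients drive the uptake of bile acids and amino acids, the secretion of chloride and bicarbonate, and cell volume control, with water following through aquaporins.

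Of the 82 genes, 75 passed the filter on low counts and were tested, and 7 were too low. An adjusted p below 0.05 was used as the call. In KO libraries 5 of the 75 rose and 16 fell, and 54 did not pass. Among all 14842 tested genes 15.5% were called, with 7.81% higher and 7.73% lower in KO. The shares among the 75 channel, pump and aquaporin genes were 28.0% called, 6.67% higher and 21.3% lower. The median log2 fold change was -0.15 over the 75 genes and -0.02 over all tested genes, and the median of the absolute value was 0.49 over the 75 genes and 0.25 over all tested genes. In 44 of the 75 genes the 3 KO values lay all above (14 genes) or all below (30 genes) the 3 WT values, against 36.6% of all tested genes. The filter let through 3 genes, Cacna1c, Kcnh3 and Kcnip4, by their WT libraries alone, and none by KO libraries alone. Cacna1c and Kcnh3 are among the 16 that fell, and since the filter favoured a difference in them, 14 is the count without them. Of the 62 genes above the filter's minimum of 0.367 CPM in all 6 libraries, 15 were called (24.2%), against 2100 of the 13425 such genes in the whole table (15.6%). Kcnip3, P2rx7 and Cacnb4, which fell, were above that minimum in 3 WT libraries but in only 2 KO libraries. Atp1b2, which rose, was above it in 3 KO libraries and 1 WT library. The filter could favour a difference in these genes as well. In the deposited table, the authors' own comparison put 22 of the 82 genes under 0.05, of which 19 were also called here.

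**Figure D1:**
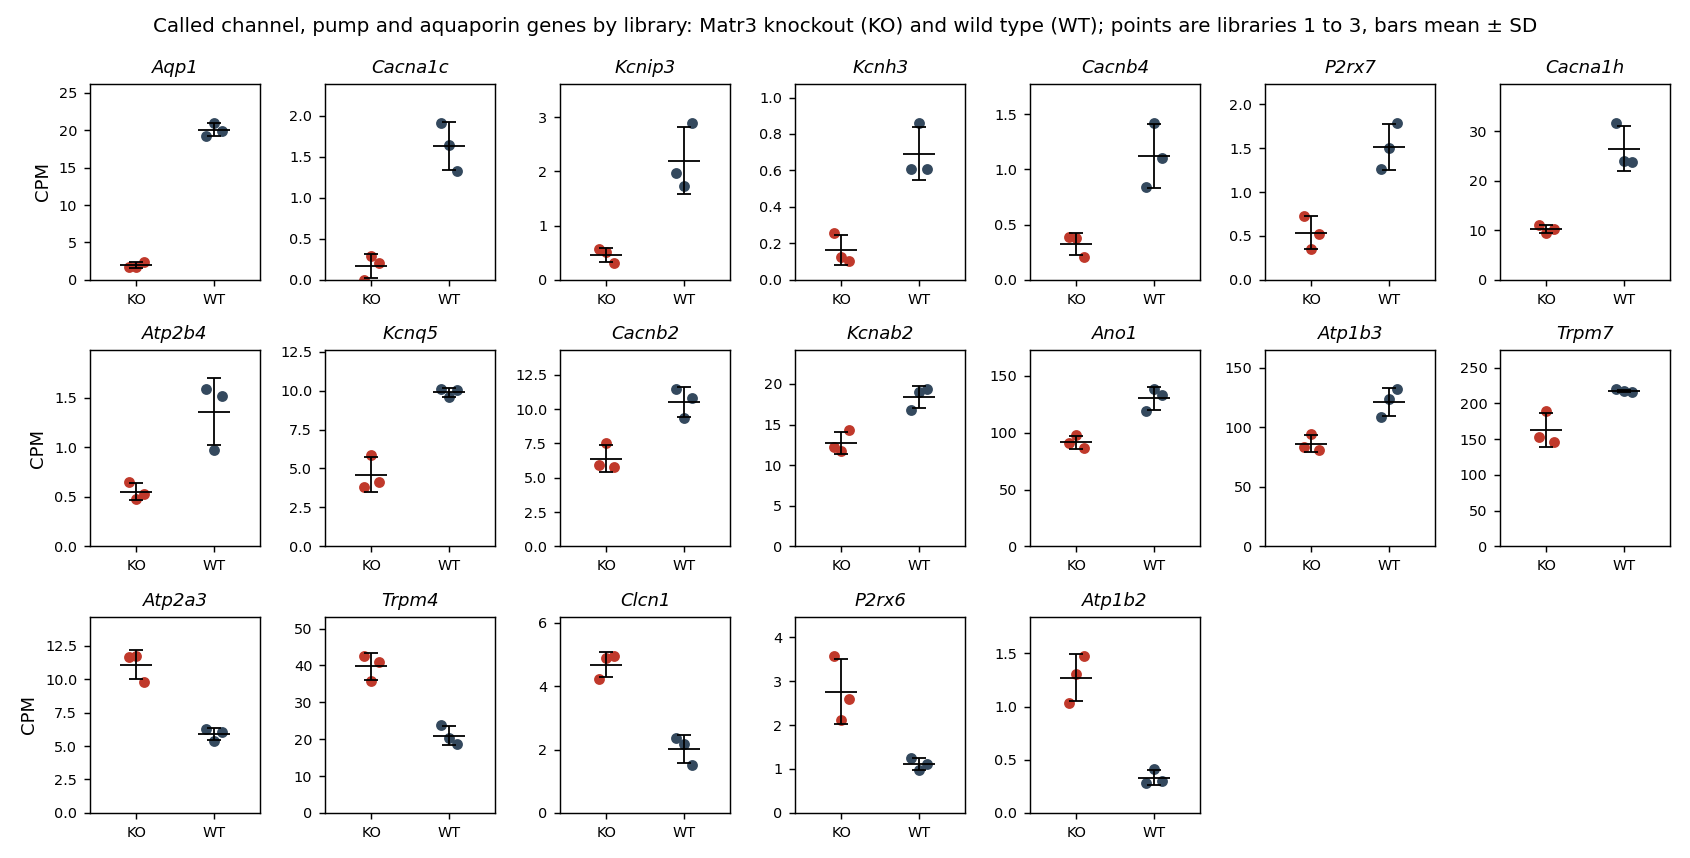
Level in CPM (linear axes from 0) of 19 genes called at an edgeR adjusted p below 0.05, 1 panel per gene, with the 3 KO libraries left and the 3 WT libraries right; each point is 1 library, and bars give the mean ± SD. In all 19 panels the KO points lie wholly above or wholly below the WT points, a separation that the choice by adjusted p favours. Among all tested genes 36.6% were separated in this way. Aqp1 stands at 1.99 CPM on average in KO and 20.1 CPM in WT.

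Aqp1, which encodes the water channel of red cells, kidney tubules, bile duct cells and many endothelia, showed the lowest adjusted p of all 82 genes. It had 1.77, 1.79 and 2.43 CPM in KO libraries, against 19.3, 21.0 and 19.9 CPM in WT libraries (raw totals of 166 and 1497 counts). Every KO library was far below every WT library, and both groups varied little within themselves. Aqp1 fell 10.0-fold (log2 fold change -3.33 ± 0.16 SE, edgeR adjusted p = 3.16e-05), and the call held in every alternative analysis and whichever library was left out. Aqp1 lies on chromosome 6 at 55313417 to 55325540, plus strand, in the coordinates of the deposited table. Among the endothelial markers, Cdh5 had 0.345, 0.606 and 0.492 CPM in KO libraries and 2.43, 2.70 and 1.98 CPM in WT libraries, while Pecam1 overlapped, with 0.861, 0.798 and 0.281 CPM in KO libraries and 0.373, 0.786 and 0.875 CPM in WT libraries. Emcn had no count in any library and Kdr none in any WT library, so Cdh5 made the difference in the sum. The summed endothelial list was 0.844 to 1.40 CPM in KO libraries and 2.80 to 3.48 CPM in WT libraries. Red cell markers summed to 0.258 to 0.528 CPM in KO libraries and 0.0467 to 0.0761 CPM in WT libraries. Fewer cells of a type and less RNA per cell cannot be told apart in bulk RNA, and the part of such cells in the Aqp1 result was not tested.

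The other aquaporins did not pass the test. Aqp8, a water channel of hepatocytes and other epithelia, had 3.62, 2.52 and 3.03 CPM in KO libraries, against 4.76, 4.27 and 4.87 CPM in WT libraries (edgeR adjusted p = 0.0777). Aqp3, which also carries glycerol, had 2.46, 2.04 and 2.29 CPM in KO libraries, against 2.75, 3.11 and 3.31 CPM in WT libraries (edgeR adjusted p = 0.207). Both were lower in KO libraries without overlap, by values that missed the threshold. Aqp11, an intracellular aquaporin, and Aqp5, a water channel of glands and airways, overlapped between the groups. On the length-scaled FPKM scale (fragments scaled to gene length and library size), the 5 aquaporins summed to 4.34 ± 0.47 FPKM in KO libraries and 12.5 ± 0.47 FPKM in WT libraries (SD, n = 3 each). Aqp1 made up 17.6 ± 3.0% of that sum in KO libraries and 60.6 ± 1.7% in WT libraries. Aqp8 was the leading aquaporin in KO libraries, with 44.4 ± 3.9% of the sum, against 23.3 ± 1.9% in WT libraries.

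The sodium-potassium pump has a transporting alpha subunit and a beta subunit that is needed for the pump to fold and reach the membrane. The beta subunits moved in different directions. Atp1b3, the main beta subunit here, had 83.2, 94.6 and 81.2 CPM in KO libraries, against 109, 124 and 132 CPM in WT libraries, and fell 1.41-fold (edgeR adjusted p = 0.0163). Atp1b2, known as an adhesion molecule on glia as well as a pump subunit, had 1.03, 1.31 and 1.48 CPM in KO libraries, against 0.280, 0.412 and 0.304 CPM in WT libraries, and rose 3.78-fold (edgeR adjusted p = 0.0120). Its raw counts were low, with 24, 41 and 42 in KO libraries and 6, 11 and 8 in WT libraries. Only 1 WT library reached the filter's minimum, so the filter could favour a difference in Atp1b2. Atp1b1, the common beta subunit of epithelia, had 18.9, 23.8 and 19.9 CPM in KO libraries, against 14.6, 16.7 and 18.3 CPM in WT libraries, and did not pass (edgeR adjusted p = 0.124). Of the summed beta-subunit FPKM, Atp1b3 held 83.6 ± 0.76% in KO libraries and 90.4 ± 0.13% in WT libraries, and Atp1b1 held 15.7 ± 0.68% in KO libraries and 9.51 ± 0.15% in WT libraries. The Atp1b3 call was lost without KO replicate 1 or 3 or WT replicate 2 or 3 (edgeR adjusted p = 0.0719 to 0.101), and the Atp1b2 call without KO replicate 3 or WT replicate 3 (edgeR adjusted p = 0.0658 to 0.0681).

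**Figure D2:**
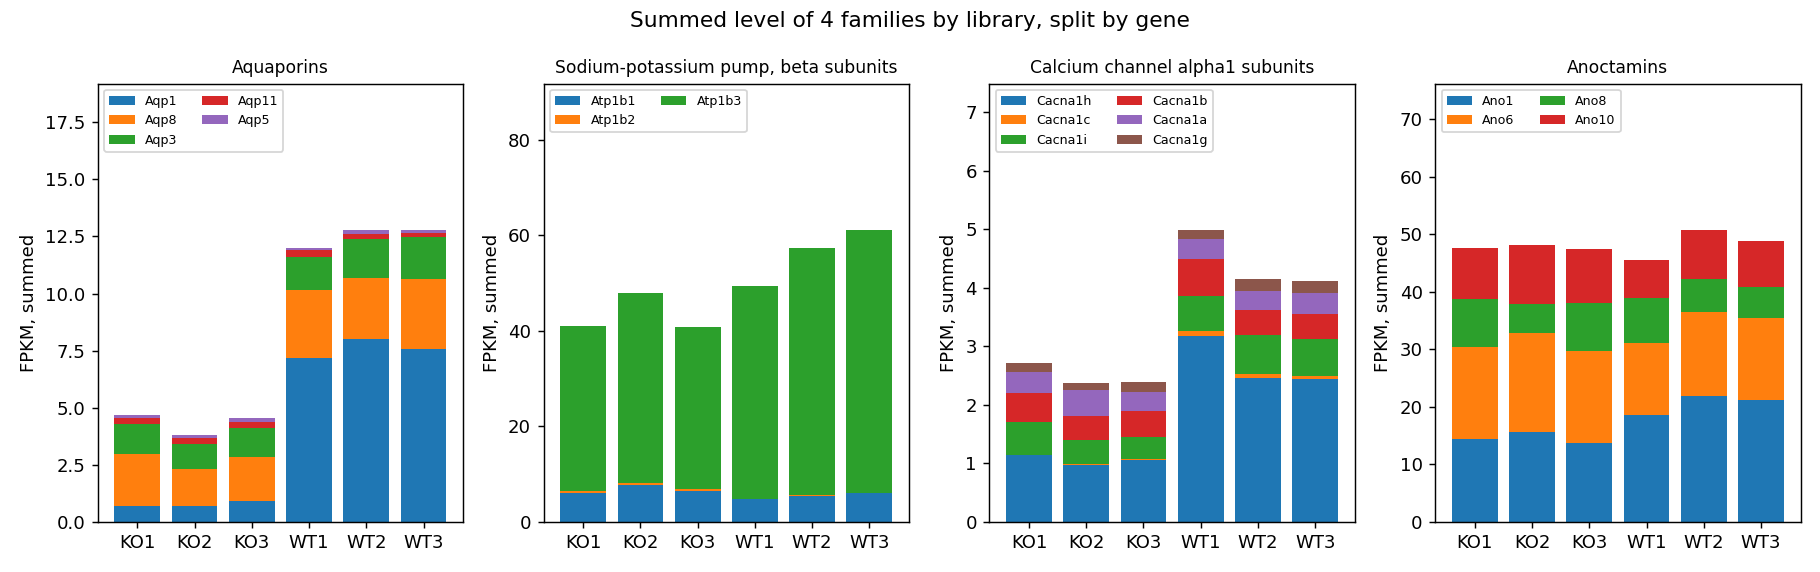
Summed FPKM (linear axes from 0) of the aquaporins, the beta subunits of the sodium-potassium pump, the alpha1 subunits of calcium channels and the anoctamins, 1 bar per library with the 3 KO libraries left and the 3 WT libraries right, split by gene in colours. The aquaporin bars reach 3.80 to 4.66 FPKM in KO and 12.0 to 12.8 FPKM in WT, with Aqp1 as the lowest segment; the anoctamin bars have nearly the same height in all 6 libraries, while the Ano1 segment is smaller in KO. No test was made of these sums and shares.

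Calcium pumps return calcium from the cytosol to the endoplasmic reticulum (Atp2a), across the plasma membrane (Atp2b) or into the Golgi (Atp2c). Atp2a3, the reticulum pump of blood cells and many epithelia, had 11.7, 11.7 and 9.81 CPM in KO libraries, against 6.25, 5.39 and 6.05 CPM in WT libraries. It rose 1.88-fold (log2 fold change 0.91 ± 0.14 SE, edgeR adjusted p = 0.00513), without overlap and in every alternative. Atp2a2, the widespread reticulum pump, was among the most abundant of the 82 genes per length, with 65.6 ± 3.2 FPKM in KO libraries and 75.4 ± 10 FPKM in WT libraries (SD, n = 3 each), and did not pass (edgeR adjusted p = 0.238). The share of Atp2a3 in the summed Atp2a FPKM was 3.10 ± 0.28% in KO libraries and 1.47 ± 0.28% in WT libraries, so the gene that rose was the minor of the pair.

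Atp2b4, a plasma membrane calcium pump, had 15 counts in each of the 3 KO libraries, against 34, 26 and 40 counts in WT libraries. It fell 2.46-fold (edgeR adjusted p = 0.0440). That call was lost whichever library was left out (edgeR adjusted p = 0.0639 to 0.167), with no filter (edgeR adjusted p = 0.0741), with the replicate block (edgeR adjusted p = 0.0742), with limma voom (adjusted p = 0.0511), with limma on log2(FPKM + 1) (adjusted p = 0.258) and with DESeq2 (adjusted p = 0.0756). In the authors' deposited table its adjusted p was 0.0719. Atp2b1, the main plasma membrane pump here, had 14.2 ± 1.6 FPKM in KO libraries and 12.2 ± 0.48 FPKM in WT libraries (SD, n = 3 each; edgeR adjusted p = 0.201). Atp2c1, the Golgi calcium and manganese pump, had 7.78 ± 1.2 FPKM in KO libraries and 8.46 ± 0.65 FPKM in WT libraries (edgeR adjusted p = 0.499, n = 3 each).

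Promoter sequences are shown for 3 of the called genes, Aqp1 as the gene with the lowest adjusted p and Atp2a3 and Clcn1 as genes that rose, each the 250 bases before the start annotated by RefSeq on GRCm38.p6. Of the 82 genes 60 had an entry, and of the 21 called genes 15. Capitals mark GGGCGG (the GC box, or CCGCCC for the other strand) and TATAAA (or TTTATA). Both strands were searched, also for CCAAT (or ATTGG), and overlapping matches were counted.
Aqp1 (chr6:55336049-55336298, plus strand): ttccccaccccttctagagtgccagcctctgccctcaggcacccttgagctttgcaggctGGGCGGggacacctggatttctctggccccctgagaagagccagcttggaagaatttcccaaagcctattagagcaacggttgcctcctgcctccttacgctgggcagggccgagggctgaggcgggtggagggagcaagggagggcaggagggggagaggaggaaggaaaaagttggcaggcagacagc
Atp2a3 (chr11:72960919-72961168, plus strand): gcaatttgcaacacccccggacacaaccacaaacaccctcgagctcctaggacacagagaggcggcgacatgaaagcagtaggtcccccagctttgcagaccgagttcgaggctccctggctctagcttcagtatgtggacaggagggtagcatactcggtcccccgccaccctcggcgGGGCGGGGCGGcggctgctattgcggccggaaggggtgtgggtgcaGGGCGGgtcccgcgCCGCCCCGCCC
Clcn1 (chr6:42286435-42286684, plus strand): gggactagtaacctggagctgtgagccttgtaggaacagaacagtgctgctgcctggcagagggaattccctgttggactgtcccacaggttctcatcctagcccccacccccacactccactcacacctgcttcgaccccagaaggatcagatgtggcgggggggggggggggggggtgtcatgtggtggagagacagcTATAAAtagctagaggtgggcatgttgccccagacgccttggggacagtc
The Atp2a3 window held 5 GC boxes, 66.8% G and C and 20 CpG pairs, the Aqp1 window held 1 GC box, 62.0% G and C and 5 CpG pairs, and the Clcn1 window held no GC box, 60.0% G and C and 3 CpG pairs. Clcn1 had a TATAAA whose match lies 50 bases before the start. Among all 32851 RefSeq promoters of that length 32.7% held a GC box, 12.4% a TATAAA and 33.9% a CCAAT, with medians of 52.4% G and C and 6 CpG pairs. These matches are descriptions of letters and no binding was measured. The windows are in GRCm38.p6, which does not share its positions with the deposited table, so they were placed by gene symbol.

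Voltage-gated calcium channels are built from a pore-forming alpha1 subunit with auxiliary beta and alpha2delta subunits, and the gamma genes of the family encode partners of calcium channels or of glutamate receptors. Of the 13 genes, all tested, 4 fell and 9 did not pass, beside 7.73% of all tested genes that fell. The 4 include Cacna1c, which passed the filter through its WT libraries alone, and Cacnb4, which reached the filter's minimum in only 2 KO libraries. The filter could favour a difference in both. Cacna1h, the pore of a low-voltage T-type channel, had 11.1, 9.48 and 10.3 CPM in KO libraries, against 31.6, 24.0 and 23.8 CPM in WT libraries. Every KO library was below every WT library, WT replicate 1 being the highest. Cacna1h fell 2.57-fold (log2 fold change -1.36 ± 0.14 SE, edgeR adjusted p = 0.00098), and no alternative or left-out library removed the call. It lies on chromosome 17 at 25593259 to 25652757, minus strand.

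Cacna1c, the pore of the L-type channel of heart and smooth muscle, had 0, 9 and 6 counts in KO libraries, against 41, 44 and 35 counts in WT libraries. It fell 9.05-fold (log2 fold change -3.18 ± 0.64 SE, edgeR adjusted p = 0.0137), with a wide error at these low counts, and the call held whichever library was left out. Cacna1c passed the filter through its WT libraries alone, so a difference was favoured by the filter. With every gene that had a count tested, the edgeR adjusted p was 9.29e-07. That fit moved other edgeR adjusted p-values widely too, for Aqp1 from 3.16e-05 to 2.49e-58 and for Kcnh3 from 0.0263 to 0.0482. The smaller value for Cacna1c is thus not firmer evidence and does not remove the limit set by the filter. With limma on log2(FPKM + 1) the call was lost (adjusted p = 0.207). Dcp1b, which encodes an mRNA-decapping protein and overlaps Cacna1c on the opposite strand, had 135 counts in KO and 30 counts in WT and rose (log2 fold change 1.99, edgeR adjusted p = 0.0368). The strandedness of the libraries is not given, so reads in the shared stretch cannot be told apart, and their part in either value was not tested. The 6 alpha1 genes summed to 2.49 ± 0.19 FPKM in KO libraries and 4.42 ± 0.50 FPKM in WT libraries (SD, n = 3 each), of which Cacna1h was 42.4 ± 1.6% in KO libraries and 60.6 ± 2.6% in WT libraries. Cacna1i and Cacna1g, the other T-type pores, had 4.44 ± 1.0 and 1.49 ± 0.30 CPM in KO libraries, against 6.20 ± 0.23 and 1.93 ± 0.22 CPM in WT libraries (SD, n = 3 each), and did not pass.

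Of the beta subunits, which bring the pore to the membrane and set its gating, Cacnb2 had 5.90, 7.50 and 5.77 CPM in KO libraries, against 11.4, 9.32 and 10.8 CPM in WT libraries, and fell 1.64-fold (edgeR adjusted p = 0.0203). Cacnb4 had 9, 12 and 6 counts in KO libraries, against 18, 38 and 29 counts in WT libraries, and fell 3.42-fold (edgeR adjusted p = 0.0248). Cacnb3, the most abundant calcium channel gene per length, had 6.04 ± 0.79 FPKM in KO libraries and 5.37 ± 1.0 FPKM in WT libraries (SD, n = 3 each) and did not pass (edgeR adjusted p = 0.553). Since Cacnb3 made up 89.1 ± 2.0% of the summed beta FPKM in KO libraries and 80.5 ± 2.1% in WT libraries, the beta genes that fell were minor ones. The Cacnb2 call was lost without KO replicate 1 or 3 or WT replicate 1 or 3 (edgeR adjusted p = 0.0553 to 0.0954), and the Cacnb4 call without KO replicate 1 or 3 or WT replicate 2 or 3 (edgeR adjusted p = 0.0852 to 0.128). The Cacnb4 call was also lost with limma on log2(FPKM + 1) (adjusted p = 0.154). Cacng8 had 4.52, 1.72 and 3.87 CPM in KO libraries, against 3.03, 0.861 and 1.10 CPM in WT libraries, with overlap and no pass (log2 fold change 1.03, edgeR adjusted p = 0.230). Cacng7, a gene of the same subgroup, had 7.75, 5.20 and 8.34 CPM in KO libraries, against 3.41, 4.87 and 4.26 CPM in WT libraries. It missed the threshold here (edgeR adjusted p = 0.0553) and had an adjusted p of 0.0325 in the authors' deposited table.

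The Kcn genes were the largest family, with 22 genes, of which 19 were tested, 4 fell and 15 did not pass. Among all tested genes 7.73% fell. The 4 include Kcnh3, which passed the filter through its WT libraries alone, and Kcnip3, which reached the filter's minimum in only 2 KO libraries. The filter could favour a difference in both. Kcnip3, also known as DREAM or calsenilin, encodes a calcium sensor that binds potassium channels and can repress transcription. It had 13, 16 and 9 counts in KO libraries, against 42, 46 and 76 counts in WT libraries, and fell 4.73-fold (log2 fold change -2.24 ± 0.37 SE, edgeR adjusted p = 0.00632). Kcnq5, a pore of the slow M-type potassium current, had 3.83, 5.87 and 4.12 CPM in KO libraries, against 10.1, 9.58 and 10.0 CPM in WT libraries, and fell 2.14-fold (log2 fold change -1.10 ± 0.19 SE, edgeR adjusted p = 0.00677). Neither call was lost in any alternative, and in both genes the groups stood clear of each other.

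Kcnab2, a cytosolic beta subunit of voltage-gated potassium channels, had 12.2, 11.7 and 14.3 CPM in KO libraries, against 16.8, 19.0 and 19.3 CPM in WT libraries, and fell 1.44-fold (edgeR adjusted p = 0.0238). Kcnh3, a voltage-gated channel known from the forebrain, had 6, 4 and 3 counts in KO libraries, against 13, 23 and 16 counts in WT libraries, and fell 4.27-fold (edgeR adjusted p = 0.0263). It too passed the filter through WT libraries alone, and had an edgeR adjusted p of 0.0482 with no filter. Kcnh3 overlaps Mcrs1 on the opposite strand, a gene with 4377 counts in KO and 3812 counts in WT that did not pass (edgeR adjusted p = 0.763). The Kcnab2 call was lost without KO replicate 1 or WT replicate 2 or 3 (edgeR adjusted p = 0.0934 to 0.118). The Kcnh3 call was lost without KO replicate 1 or 3 or WT replicate 2 or 3 (edgeR adjusted p = 0.0578 to 0.135). It was also lost with DESeq2, with limma on log2(FPKM + 1) and in the authors' deposited table (adjusted p = 0.0622 in that table).

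Kcnn4, the calcium-activated potassium channel of epithelia and blood cells, was the most abundant Kcn gene per length, with 7.05 ± 1.0 FPKM in KO libraries and 7.36 ± 0.31 FPKM in WT libraries (SD, n = 3 each). It had 39.5, 29.8 and 38.9 CPM in KO libraries, against 37.1, 37.1 and 39.4 CPM in WT libraries, so only KO replicate 2 was below the rest (log2 fold change -0.07 ± 0.12 SE, edgeR adjusted p = 0.726). The sign of that small difference turned without KO replicate 2, to 0.05. Kcnk5, a two-pore potassium channel of epithelia, and Kcnh2, the hERG channel, were next in level and did not pass (edgeR adjusted p = 0.308 and 0.337).

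Kcnip4, Kcnv2 and Kcnj14 had fitted log2 fold changes beyond 1 in size without passing. Kcnip4, a relative of Kcnip3, had 0.215, 0.319 and 0.317 CPM in KO libraries, against 1.45, 0.487 and 0.457 CPM in WT libraries, so WT replicate 1 alone was high. Kcnv2, a silent subunit that modifies other potassium channels, had 0.603, 1.15 and 0.563 CPM in KO libraries, against 1.73, 1.68 and 2.13 CPM in WT libraries. Its groups did not overlap and it came close to the threshold (edgeR adjusted p = 0.0519). Kcnj14, an inward rectifier, had 0.431, 0.192 and 0.387 CPM in KO libraries, against 1.40, 0.824 and 0.342 CPM in WT libraries, with overlap.

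**Figure D3:**
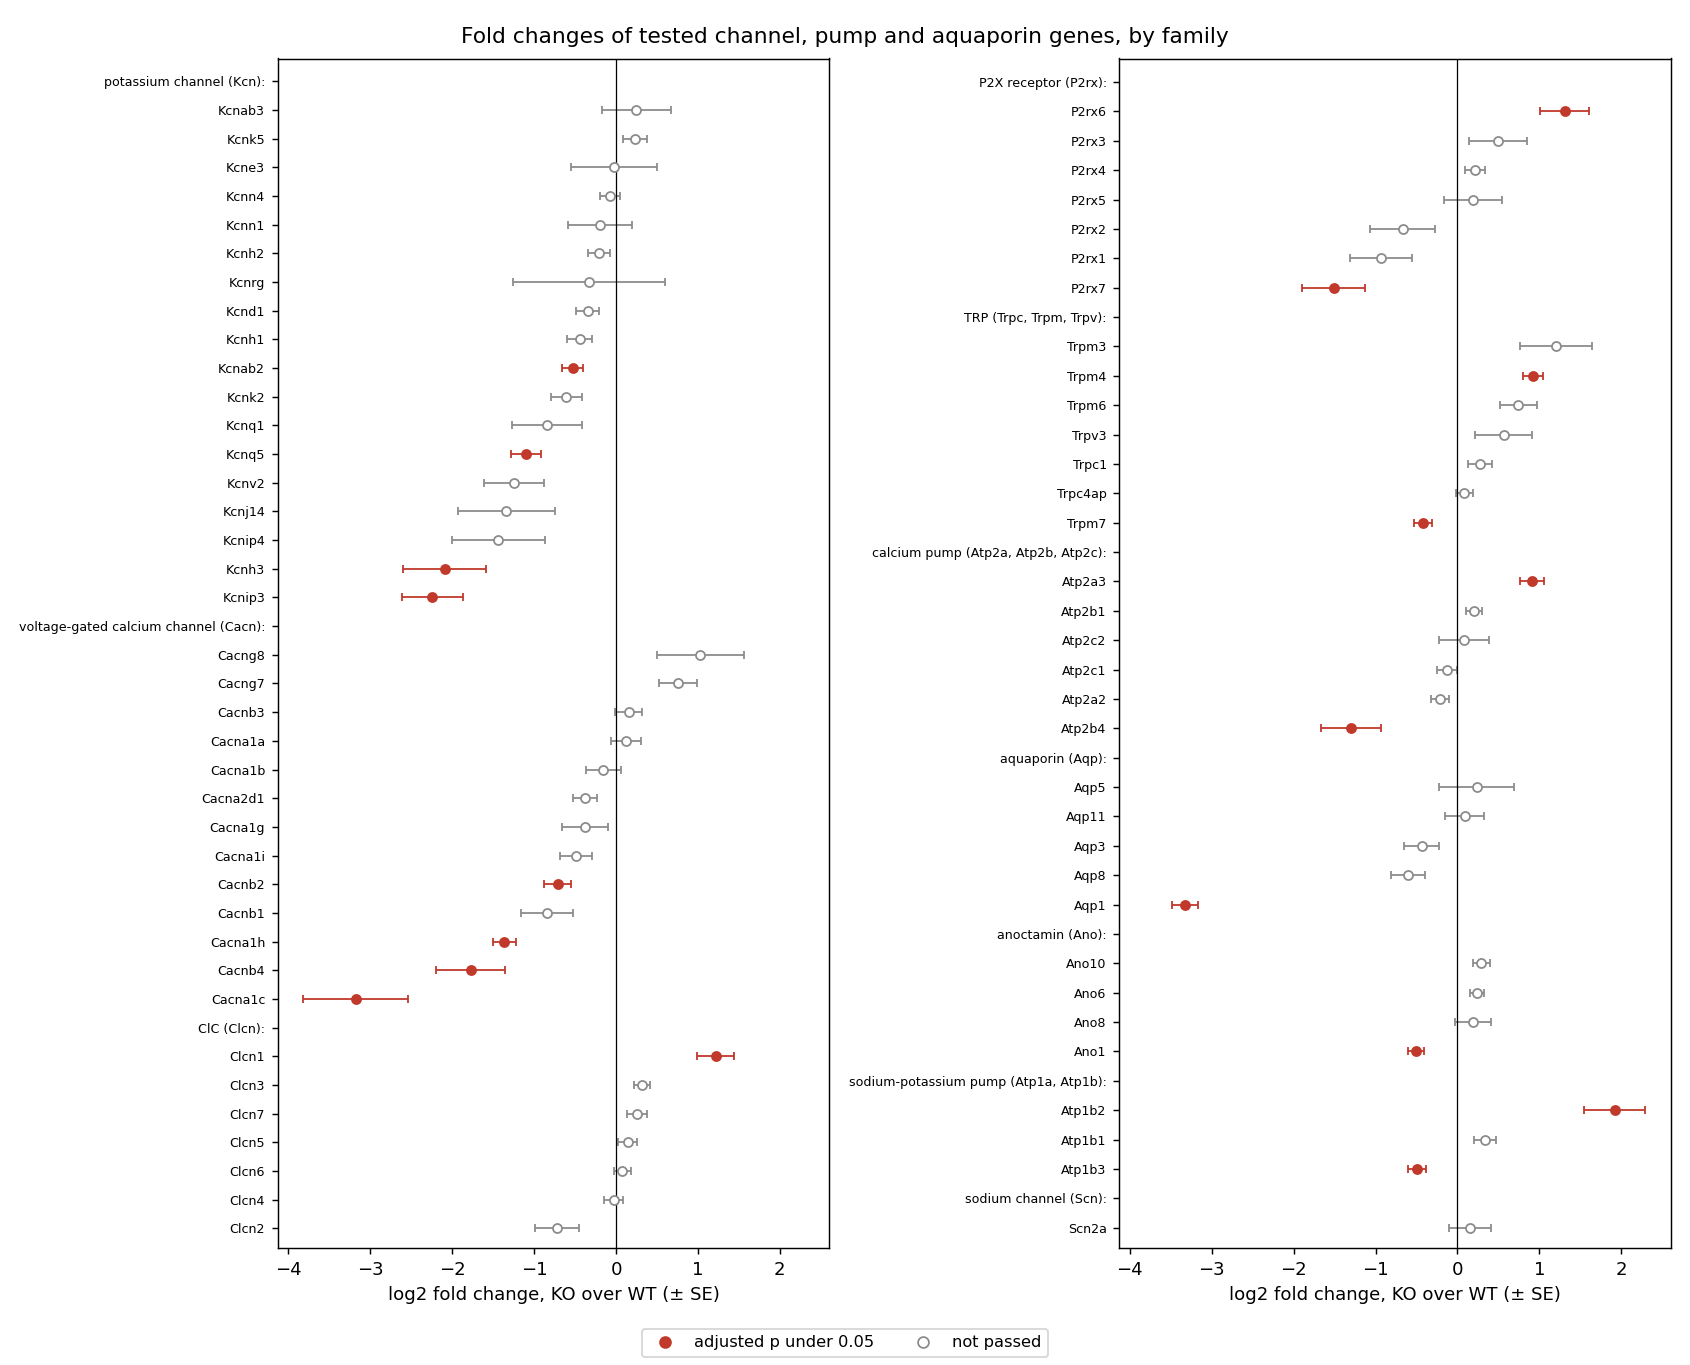
Log2 fold change, KO over WT, of 71 tested genes by family (horizontal axis; bars are ± SE from the edgeR fit), filled where the adjusted p was below 0.05. The 4 filled points of the Kcn family and the 4 of the Cacn family all lie left of 0, and Aqp1 lies furthest left, at -3.33.

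Voltage-gated sodium channels carry the rising phase of action potentials in nerve and muscle. Scn2a, a pore subunit, had 2.89, 3.67 and 3.06 CPM in KO libraries, against 3.27, 3.41 and 2.02 CPM in WT libraries, with overlap. Scn1a, another pore subunit, did not reach the filter and had 15, 7 and 16 counts in KO libraries, against 1, 3 and 0 counts in WT libraries. The ratio of its depth-scaled totals, 38 counts in KO and 4 counts in WT, was 8.67 with a 95% counting interval of 3.12 to 33.4, which covers counting error only.

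The other genes below the filter were Trpv2, Trpm1, Kcnk4, Kcnab1, Kcnj12 and Scn3a. Their totals lay between 9 and 30 counts in KO and between 14 and 85 counts in WT. Trpv2, a cation channel of many immune cells, had 2, 4 and 3 counts in KO libraries, against 11, 7 and 12 counts in WT libraries. No test was made of these genes.

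TRP channels pass cations in response to lipids, temperature or calcium. Of the 9 genes, which include the TRPC4-associated protein Trpc4ap, 7 were tested. Trpm4, a channel opened by intracellular calcium that passes sodium and potassium but not calcium, had 42.6, 35.7 and 41.0 CPM in KO libraries, against 23.8, 20.3 and 18.7 CPM in WT libraries. Every KO library lay above every WT library. Trpm4 rose 1.90-fold (log2 fold change 0.93 ± 0.12 SE, edgeR adjusted p = 0.00260), and no alternative or left-out library removed the call. The processed pseudogene Rpl14-ps1 lies within the Trpm4 region on the opposite strand and took 42977 counts in KO and 26553 counts in WT (log2 fold change 0.55, edgeR adjusted p = 0.0455). Its counts were far above those of Trpm4, which had 3272 in KO and 1543 in WT, and how reads were divided between these overlapping rows is not given.

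Trpm7, a magnesium- and calcium-permeable channel fused to a kinase, was the most abundant TRP channel per length. It had 152, 190 and 146 CPM in KO libraries, against 220, 217 and 216 CPM in WT libraries, and fell 1.34-fold (log2 fold change -0.42 ± 0.11 SE, edgeR adjusted p = 0.0378). KO replicate 2 lay nearest to the WT values, which were almost identical. The call was lost without KO replicate 1 or 3 or any WT replicate (edgeR adjusted p = 0.0868 to 0.197). It was also lost when libraries were scaled by their totals alone (edgeR adjusted p = 0.0539), with no filter on low counts (edgeR adjusted p = 0.0679) and with limma on log2(FPKM + 1) (adjusted p = 0.0626). Trpm6, the relative of Trpm7 that serves magnesium uptake in gut and kidney, had 2.84, 3.99 and 3.59 CPM in KO libraries, against 1.96, 2.02 and 2.25 CPM in WT libraries, a difference that missed the threshold (edgeR adjusted p = 0.0566). Trpm3, a heat- and steroid-sensitive channel, had 0.560, 1.05 and 1.27 CPM in KO libraries, against 0.467, 0.487 and 0.304 CPM in WT libraries, and did not pass (log2 fold change 1.20, edgeR adjusted p = 0.102). Of the summed TRPM FPKM, Trpm4 held 20.0 ± 3.5% in KO libraries and 8.99 ± 0.96% in WT libraries, and Trpm7 held 77.3 ± 3.5% in KO libraries and 89.6 ± 0.86% in WT libraries (SD, n = 3 each). Trpc4ap, a substrate receptor of a ubiquitin ligase rather than a channel, had 29.4 ± 0.14 FPKM in KO libraries and 27.5 ± 3.1 FPKM in WT libraries and did not pass (edgeR adjusted p = 0.591, n = 3 each).

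Trpm7 and Kcnip3 lie 580 kb apart on chromosome 2, and of the 12 tested genes between them 1 was called lower and the other 11 did not pass. Within 500 kb of the 16 genes that fell, 17 of 238 tested neighbours also fell (7.14%, beside 7.73% of all tested genes). Within 500 kb of the 5 genes that rose, 27 of 162 tested neighbours also rose (16.7%, beside 7.81% of all tested genes). Most of the 27 lie near Trpm4 (10 of 63 neighbours) or Atp1b2 (10 of 51 neighbours).

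Chloride channels and the anoctamins carry anions, or in some anoctamins scramble lipids. Clcn1, the chloride channel known from skeletal muscle, was the ClC gene that passed. It had 4.22, 4.88 and 4.96 CPM in KO libraries, against 2.38, 2.17 and 1.52 CPM in WT libraries, and rose 2.32-fold without overlap (log2 fold change 1.21 ± 0.23 SE, edgeR adjusted p = 0.0103). The call held whichever library was left out. Muscle markers summed to at most 0.176 CPM in KO libraries and 0.467 CPM in WT libraries. Fam131b, which overlaps Clcn1 on the opposite strand, had 940 counts in KO and 956 counts in WT and did not pass (edgeR adjusted p = 0.521).

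The other 6 ClC genes did not pass. Clcn7, the lysosomal chloride-proton exchanger, was the most abundant per length, with 8.26 ± 0.41 FPKM in KO libraries and 6.87 ± 0.99 FPKM in WT libraries (SD, n = 3 each; edgeR adjusted p = 0.197). Clcn3, an endosomal exchanger, had 120, 141 and 118 CPM in KO libraries, against 101, 102 and 103 CPM in WT libraries. It missed the threshold here (edgeR adjusted p = 0.0533) and had an adjusted p of 0.0411 in the authors' deposited table. Clcn2, a chloride channel of the plasma membrane, had 4.39, 3.73 and 4.61 CPM in KO libraries, against 10.3, 5.47 and 5.37 CPM in WT libraries, where WT replicate 1 was well above the other WT libraries.

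Ano1, the calcium-activated chloride channel of secretory epithelia, had 90.8, 98.0 and 86.6 CPM in KO libraries, against 119, 138 and 133 CPM in WT libraries. It fell 1.42-fold without overlap (log2 fold change -0.50 ± 0.09 SE, edgeR adjusted p = 0.0101). Ano6, a calcium-activated lipid scramblase, had 198, 209 and 197 CPM in KO libraries, against 158, 179 and 176 CPM in WT libraries, and missed the threshold (edgeR adjusted p = 0.105). Ano10 had 52.8, 59.8 and 55.4 CPM in KO libraries, against 40.7, 50.4 and 46.3 CPM in WT libraries, likewise above WT without passing (edgeR adjusted p = 0.0978). The 4 anoctamins summed to 47.7 ± 0.32 FPKM in KO libraries and 48.4 ± 2.6 FPKM in WT libraries, while the Ano1 share was 30.4 ± 1.8% in KO libraries and 42.3 ± 1.5% in WT libraries (SD, n = 3 each). The sums lay within the spread of the libraries and the Ano1 shares did not overlap. The Ano1 call was lost without KO replicate 1 or 3 or WT replicate 2 or 3 (edgeR adjusted p = 0.0562 to 0.079).

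P2X receptors are cation channels opened by extracellular ATP. P2rx7, the receptor that drives inflammasome activation in macrophages, had 17, 11 and 15 counts in KO libraries, against 27, 40 and 47 counts in WT libraries, and fell 2.85-fold (log2 fold change -1.51 ± 0.38 SE, edgeR adjusted p = 0.0309). Summed macrophage and leukocyte markers were at most 0.172 CPM in KO libraries and 0.327 CPM in WT libraries, with Adgre1 at 0 in all 6. P2rx6 had 3.57, 2.11 and 2.60 CPM in KO libraries, against 1.26, 0.973 and 1.10 CPM in WT libraries, and rose 2.47-fold (log2 fold change 1.31 ± 0.30 SE, edgeR adjusted p = 0.0209). The P2rx7 call was lost without KO replicate 1 or 3 or WT replicate 2 or 3 (edgeR adjusted p = 0.0627 to 0.132), and the P2rx6 call without the same libraries (edgeR adjusted p = 0.0595 to 0.0946). The P2rx7 call was also lost with limma on log2(FPKM + 1). P2rx4, the most abundant P2X gene per length, had 15.1, 16.2 and 16.1 CPM in KO libraries, against 15.4, 12.4 and 12.9 CPM in WT libraries, with overlap (edgeR adjusted p = 0.268). The share of P2rx4 in the summed P2X FPKM was 47.9 ± 5.5% in KO libraries and 45.6 ± 2.2% in WT libraries, so the minor receptors were those called.

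Across families, the calls were set against level. Of the 18 genes with a mean of at least 5 FPKM, 3 fell (Ano1, Atp1b3 and Trpm7), 15 did not pass, and the median absolute log2 fold change was 0.22. Of the 20 genes from 1 to 5 FPKM, 2 rose and 5 fell, with a median size of 0.57. Of the 44 genes below 1 FPKM, 37 were tested, 3 rose and 8 fell, with a median size of 0.74. The 8 include Cacna1c and Kcnh3, which passed the filter through WT libraries alone, as did the uncalled Kcnip4 in this level range. Kcnip3, P2rx7, Cacnb4 and Atp1b2, also below 1 FPKM, reached its minimum in fewer libraries of their lower group. The filter could favour a difference in all of these, so the counts and median size at this level are not free of it. Among all tested genes 15.5% were called, with a median size of 0.25. No split by level is given for them, so whether this pattern is particular to the channel, pump and aquaporin genes was not tested.

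**Figure D4:**
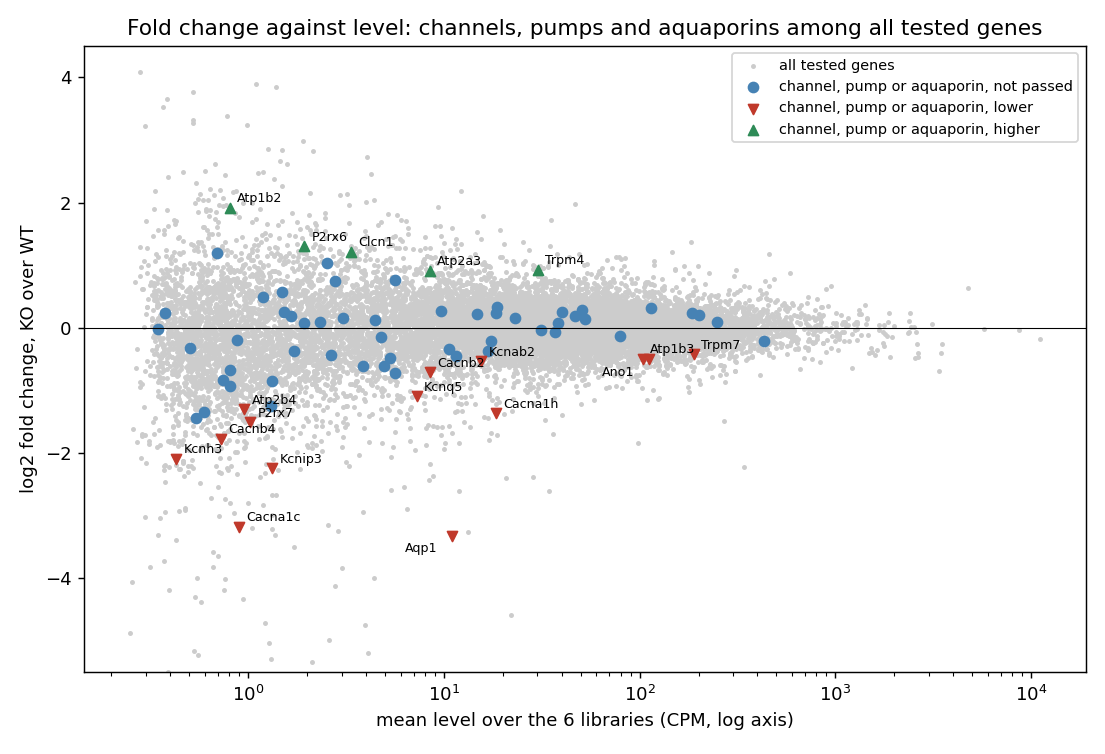
Log2 fold change, KO over WT, against the mean level over 6 libraries (CPM, log axis) for all tested genes in grey and for the channel, pump and aquaporin genes in colour; 41 genes lie outside the plotted range of -5.5 to 4.5. The called genes at over 100 CPM, Ano1, Atp1b3 and Trpm7, lie between -0.50 and -0.42, and Aqp1 lies at -3.33, below nearly all genes of similar level.

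Genes that work beside these channels and pumps were counted in 5 lists, to be read beside the 7.81% of all tested genes called higher, the 7.73% called lower and the 15.5% called either way. For store-operated entry and calcium release, 6 of 21 tested genes rose and 15 did not pass (median log2 fold change 0.19). Itpr2, a calcium release channel of the endoplasmic reticulum, had 42.4, 49.0 and 43.8 CPM in KO libraries, against 29.9, 33.6 and 34.1 CPM in WT libraries (edgeR adjusted p = 0.0173). Saraf, which slows store-operated entry, had 117, 115 and 120 CPM in KO libraries, against 80.8, 91.0 and 93.6 CPM in WT libraries (edgeR adjusted p = 0.0175), and Tmem38a, a reticulum potassium channel, rose 1.44-fold (edgeR adjusted p = 0.0245). These 3 were picked as the called genes of the list with the smallest p, a choice that favours a lack of overlap. All 3 were higher in KO without overlap, beside 36.6% of all tested genes without overlap in either direction.

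Of 35 tested genes in the list of other channels, 2 rose, 2 fell and 31 did not pass (median 0.02). Tmem63a, a stretch-activated cation channel, rose 1.58-fold (edgeR adjusted p = 0.00192), and Lrrc8e, a subunit of the volume-regulated anion channel, rose 1.65-fold (edgeR adjusted p = 0.0032). Piezo2, a mechanically opened cation channel, had 5.81, 5.49 and 6.65 CPM in KO libraries, against 15.0, 11.8 and 12.6 CPM in WT libraries, and fell 2.19-fold (edgeR adjusted p = 0.0026).

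Of 29 tested cation exchangers and cotransporters, 4 rose and 4 fell (median 0.02). Slc41a2, a magnesium transporter, rose 2.08-fold (edgeR adjusted p = 0.00253), Nipal3 rose 1.92-fold (edgeR adjusted p = 0.0229) and Slc9a9, an endosomal sodium-proton exchanger, rose 1.73-fold (edgeR adjusted p = 0.0239). Of 24 tested regulators of pumps, channels and water channels, 4 fell and 20 did not pass (median -0.10). Nkain1, which encodes a protein that interacts with the sodium-potassium pump, had 5.25, 4.72 and 5.59 CPM in KO libraries, against 16.4, 19.6 and 19.7 CPM in WT libraries, and fell 3.58-fold (log2 fold change -1.84 ± 0.14 SE, edgeR adjusted p = 0.000196). Stk39, the SPAK kinase that controls cation-chloride cotransporters, fell 1.74-fold (edgeR adjusted p = 0.00434), and Nfat5, the transcription factor of the response to high salt, fell 1.53-fold (edgeR adjusted p = 0.0158). Of 15 tested genes of other P-type ATPases, 1 rose and 2 fell (median -0.09). Atp13a1, a pump of the endoplasmic reticulum, fell 1.29-fold (edgeR adjusted p = 0.0265) and Atp8b3 rose 1.58-fold (edgeR adjusted p = 0.0275). Over the 5 lists 25 genes were called, between 7 and 40 with 1 library left out and 75 without KO replicate 2 and WT replicate 1.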

How the data were processed

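The authors deposited 1 table for the series with raw counts and FPKM values per library, and with the mean signal per group, log2 fold changes and p-values of their own comparison, per the file headers. Aligner, counter and strand setting: not given in the sources used here. GRCm38 and mm10 are named by the submitters' processing notes, but only 1 of the 82 genes has the same coordinates in a GENCODE annotation of GRCm38. The positions in the table are thus not those of GRCm38, and which build they follow is unsettled. Coordinates are given as in the table.

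Raw counts, as deposited, went into edgeR 4.0.16 (R 4.3.3): filterByExpr kept 14842 of 27065 genes with a count, libraries were TMM-scaled, and a robust quasi-likelihood F test compared KO with WT without covariates. P-values were adjusted by Benjamini-Hochberg over the tested genes. CPM uses TMM-scaled totals, and fold changes are KO over WT. Genes were named by a rule: all called genes, the most abundant of each family and of the whole set, uncalled genes with the largest fold changes, strongly differing low genes, and up to 3 called genes per partner list. Clcn3, Cacng7, Clcn2, Trpm6 and other uncalled genes were added after their values were seen. The genes, lists and rule were chosen with earlier results of these data known. Some genes that the rule names are not reported here, though they stay in the fits and counts. Alternatives also used DESeq2 1.42.0 and limma 3.58.1. Counting intervals cover counting error only.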

Additional observations from a re-analysis of the deposited data

How the results depend on the processing

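All 21 called genes kept their direction in every alternative that tested them. Atp1b2, Cacna1c, Cacnb4, Kcnh3 and Atp2b4 were not tested in the alternative that required a mean of at least 1 CPM. In 7 of them, Aqp1, Cacna1h, Trpm4, Atp2a3, Kcnip3 and Kcnq5 among them, the call held in each alternative, and in 12 it was lost when some library was left out. Over the 38 named channel, pump and aquaporin genes, 613 of 714 alternative values kept direction and call, 24 came to pass, 75 came to miss the threshold and 2 changed sign, both of Kcnn4 (log2 fold change -0.11 to 0.05 with 1 library left out, 0.053 without KO replicate 2 and 0.03 without KO replicate 2 and WT replicate 1). The 75 losses all fell on the 21 called genes, since an uncalled gene has no call to lose. The pooled numbers thus make the calls look more stable than they were. The number that rose, 5, became 8 with library totals alone (15 fell), 8 with no filter on low counts, 8 when only protein-coding genes were tested, 9 after removal of each library's GC trend, 18 (and 23 that fell) without KO replicate 2 and WT replicate 1, and 2 at an adjusted p below 0.01. Leaving out 1 library gave 3 to 9. The number that fell, 16, became 5 at an adjusted p below 0.01 and 6 to 19 with 1 library left out. Among all tested genes 2306 calls became 7630 without KO replicate 2 and WT replicate 1, 773 at an adjusted p below 0.01 and 896 to 4368 with 1 library left out. The 25 calls in the partner lists became 75, 6 and 7 to 40 under the same changes. The cause of these changes was not tested. The GC alternative was chosen after seeing the data, as was a non-robust fit, which gave 5 and 16.

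Replicate numbers gave no sign of pairing: deviations of same-numbered libraries correlated at 0.17, -0.03 and -0.20, and those of differently numbered libraries between -0.22 and 0.28. With so few libraries per group these values cannot show whether same-numbered libraries were prepared together, which the labels do not say. With the replicate block 5 genes rose and 16 fell, with 20 of the 21 calls shared (Atp2b4 was lost), and 1909 of all tested genes were called. Matr3 was lower in KO with each alternative. Library totals set how well low genes can be told apart, and 7 of the 82 genes were too low to test.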

Other observations

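Some rows that the choice of genes left out, or that were too low to test, differed in WT replicate 1 alone. Kcnq1ot1, the long noncoding RNA antisense to Kcnq1, had 183, 389 and 168 counts in KO libraries, against 1427, 244 and 277 counts in WT libraries, so WT replicate 1 held most of the WT total (edgeR adjusted p = 0.229). Kcnab1, a beta subunit of voltage-gated potassium channels, had 6, 14 and 10 counts in KO libraries, against 67, 9 and 9 counts in WT libraries. Kcnk4, a two-pore potassium channel, had 6, 1 and 11 counts in KO libraries, against 26, 5 and 6 counts in WT libraries. In Kcnk4 the KO values also differed widely among themselves. The pseudogene Aqp10-ps had 24 counts in KO and 29 counts in WT.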
